A study of Mus musculus with 4 samples.

Results

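The naive pluripotency transcription factors examined here were *Klf2*, *Klf4*, *Klf5*, *Tfcp2l1*, *Esrrb*, *Tbx3*, *Nr0b1*, *Zfp42*, *Prdm14* and *Tcl1*. These 10 genes were chosen by symbol, and all 10 were found among the 50559 genes of the count table. A filter on a mean of at least 10 reads over the libraries left 18586 genes, and all 10 passed it. RNA-seq had been done on E14 cells, a line of mouse embryonic stem cells (ESCs) derived from the inner cell mass of a mouse blastocyst, to follow the transcriptome after knockdown of *Ythdf2* and after a wild-type or mutant YTHDF2 was put back. There were 4 libraries, and each was the only one of its group. shscr_EV carried a scrambled hairpin and the empty vector, and shYthdf2_EV carried a hairpin against *Ythdf2* and the empty vector. shYthdf2_WT carried the same knockdown with wild-type YTHDF2, and the library titled shYtdhf2_Mut, written shYthdf2_Mut below, carried the knockdown with a YTHDF2 whose m6A-binding site was mutated. Per the study's methods, ESCs with a tdTomato reporter under the MERVL promoter were grown on gelatin with serum replacement, and knockdown lines were made with lentivirus and selected with puromycin. The labels do not say which of the hairpins of the study was used.

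Naive pluripotency is the state of the epiblast before implantation, and ESCs hold it in culture through a network of transcription factors that activate each other. LIF acts through STAT3 on *Klf4* and *Tfcp2l1*, while inhibition of GSK3 frees *Esrrb* and *Tfcp2l1* from repression by TCF7L1. The members of this network are partly redundant, and their transcripts vary from cell to cell in serum or serum replacement more than in medium with kinase inhibitors. YTHDF2 is a cytoplasmic protein that recognises N6-methyladenosine (m6A) in RNA and brings such transcripts to deadenylation and decay. Among the 10, *Tcl1* encodes a coactivator of AKT kinase and not a DNA-binding protein, and *Nr0b1* encodes DAX1, an atypical nuclear receptor that lacks the usual DNA-binding domain. Both have been counted with the naive network because they are expressed with it.

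Totals lay between 31533129 and 35742335 reads. Each library had a read for 26123 to 26700 genes. *Ythdf2* itself had 2806 reads in shscr_EV, 662 in shYthdf2_EV, 7661 in shYthdf2_WT and 6925 in shYthdf2_Mut, so the library labelled as knockdown was lowest and both libraries with a construct lay above the control. The counts do not separate a construct from the endogenous gene. ESC markers (*Pou5f1*, *Nanog*, *Sox2*, *Sall4*, *Lin28a* and *Dppa5a*) were high in every library, with a summed level of 3010 to 3470 CPM, which are counts scaled by library size. Of the markers of other cells, the sum of 6 was 12.5 to 23.9 CPM for primitive endoderm, 27.1 to 35.0 for trophectoderm and 10.9 to 16.5 for fibroblast feeders, with *Lum* at 0 in each library. Libraries also stood apart in ways that touch the results below. The genes of chromosome 12 as a whole were lower than in shscr_EV, most so in shYthdf2_EV and shYthdf2_Mut and less so in shYthdf2_WT. The 4 Y-linked genes *Eif2s3y*, *Uty*, *Ddx3y* and *Kdm5d* together had 2 reads in shscr_EV, 604 in shYthdf2_EV, 85 in shYthdf2_WT and 528 in shYthdf2_Mut. With 1 library per group there was no replicate and no test. Every interval below is a 95% interval for counting error only, so it compares libraries and not conditions. In bulk samples, fewer cells expressing a gene and less RNA per cell cannot be told apart.

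Levels were compared between genes as RPKM, which is the read count scaled by exon length and library size. In shscr_EV the order was *Zfp42* at 176, *Esrrb* at 158, *Tfcp2l1* at 82.9, *Klf5* at 81.8, *Klf2* at 58.4, *Tcl1* at 39.6, *Tbx3* at 39.5, *Klf4* at 25.0, *Nr0b1* at 23.8 and *Prdm14* at 17.4 RPKM. The neighbours *Tfcp2l1* and *Klf5*, *Tcl1* and *Tbx3*, and *Klf4* and *Nr0b1* overlapped in their counting intervals. The order also rests on the exon lengths of the count table, 7553 bases for *Klf4* and 1728 for *Klf5*. Their longest coding transcripts in GENCODE vM21 have 3029 and 3352 bases, so the places of these genes depend on the length taken. *Zfp42*, *Esrrb* and *Prdm14* held the first, the second and the last place in all 4 libraries. *Tcl1* was in place 6 in shscr_EV and 7 in shYthdf2_WT, but in place 9 in shYthdf2_EV and in shYthdf2_Mut. *Nr0b1* was in place 9 in shscr_EV and 6 in shYthdf2_EV. The summed level of the 10 genes hardly moved, from 2820 CPM in shscr_EV to 2900 in shYthdf2_EV, 2860 in shYthdf2_WT and 2940 in shYthdf2_Mut.

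**Figure D1:**
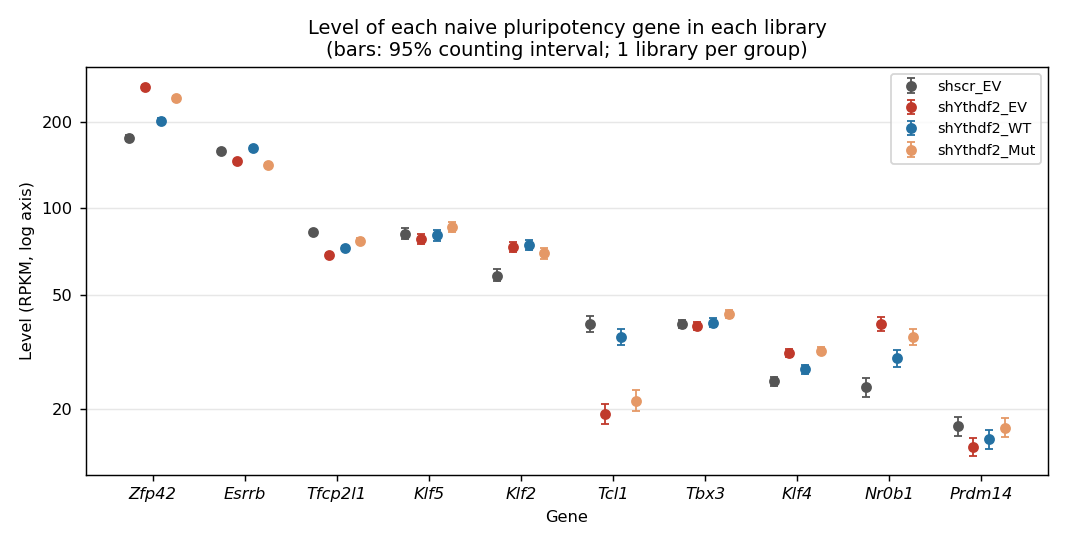
Level of each gene in each library, as RPKM on a log axis, with genes ordered by their level in shscr_EV, 1 point per library and bars for the 95% counting interval. *Tcl1* fell into a high pair (39.6 in shscr_EV and 35.6 in shYthdf2_WT) and a low pair (19.2 in shYthdf2_EV and 21.4 in shYthdf2_Mut), while *Zfp42* and *Nr0b1* were highest in shYthdf2_EV and lowest in shscr_EV.

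The knockdown comparison asks how the naive genes stood when *Ythdf2* was low. In shYthdf2_EV against shscr_EV, 4 of the 10 genes were higher outside counting error, namely *Klf2*, *Klf4*, *Nr0b1* and *Zfp42*, where 23.2% of all tested genes were. As many were lower, namely *Tfcp2l1*, *Esrrb*, *Prdm14* and *Tcl1*, where 22.8% of all tested genes were. Counting intervals are narrow for genes with many reads, and among the 8542 genes with a mean of at least 500 reads (the well-read genes below, which include all 10) these shares were 31.8% and 31.9%. *Klf5* and *Tbx3* did not differ beyond counting error. The median log2 ratio of the 10 was -0.04 and that of all tested genes 0. At least 1.5-fold higher were *Nr0b1* and *Zfp42* (13.8% of all tested genes, 3.84% of the well-read genes), with *Zfp42* at the threshold itself and just below it under upper-quartile scaling, a prior count of 5 and the chromosome correction. At least 1.5-fold lower was *Tcl1* (12.9% and 3.1%), and it was also the only 1 of the 10 at least 2-fold lower (5.7% and 0.41%). The next below the threshold was *Klf2*, at 1.26-fold.

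**Figure D2:**
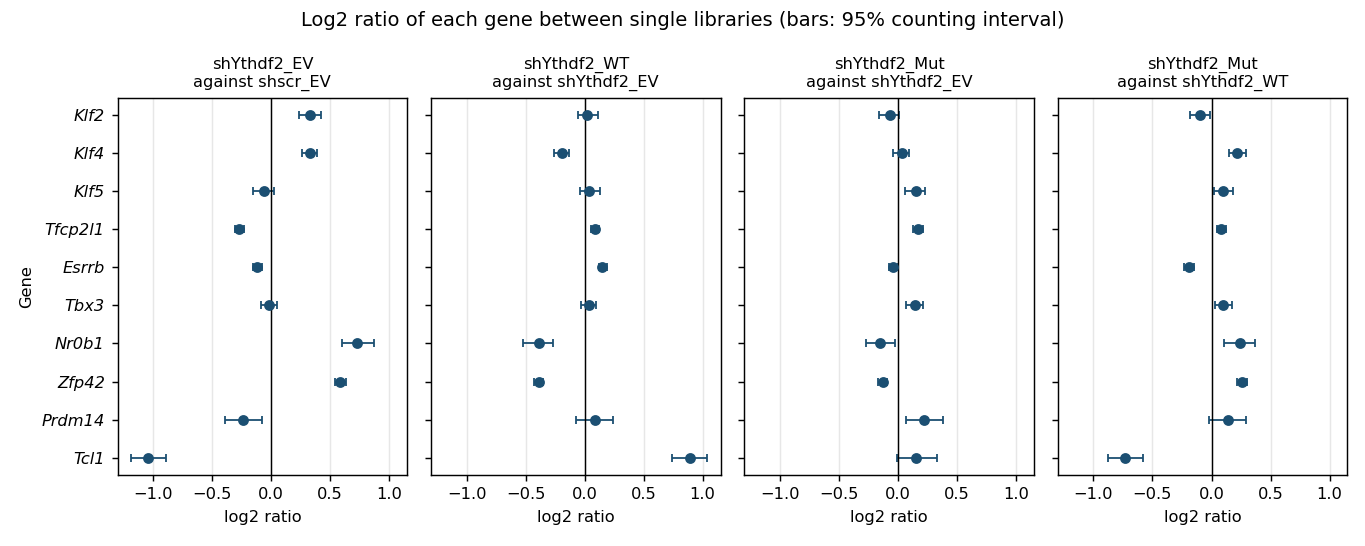
Log2 ratio of each gene in 4 comparisons of single libraries, with bars for the 95% counting interval. *Nr0b1* (0.73) and *Zfp42* (0.58) were highest and *Tcl1* (-1.04) lowest in shYthdf2_EV against shscr_EV, and all 3 lay on the other side of 0 in shYthdf2_WT against shYthdf2_EV.

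The Krüppel-like factors *Klf2*, *Klf4* and *Klf5* are zinc-finger activators that share many binding sites in ESCs and stand in for each other. *Klf2* (mm39 chr8:73072906-73075498, plus strand) had 3354 reads in shscr_EV, 4793 in shYthdf2_EV, 4465 in shYthdf2_WT and 4036 in shYthdf2_Mut. All 3 libraries with the *Ythdf2* hairpin lay above the control, at log2 ratios of 0.33 (0.24 to 0.42), 0.35 (0.26 to 0.45) and 0.26 (0.16 to 0.35). Neither construct moved *Klf2* from shYthdf2_EV beyond counting error, at 0.02 (-0.06 to 0.11) with the wild-type and -0.07 (-0.16 to 0.01) with the mutant. Mutant against wild-type was -0.10 (-0.18 to -0.01). *Klf2* has the most G and C of the 10 transcripts, at 61.6%, and correcting for base composition (GC content) and exon length left 0.29 in the knockdown but only 0.12 in shYthdf2_WT against shscr_EV. The same correction took the wild-type construct against shYthdf2_EV to -0.17, and turned mutant against wild-type to 0.24.

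*Klf4* (chr4:55527137-55536984, minus strand), which LIF and STAT3 induce, had 5967, 8515, 6827 and 7685 reads in shscr_EV, shYthdf2_EV, shYthdf2_WT and shYthdf2_Mut. shscr_EV was the lowest and shYthdf2_WT came next. The ratio on knockdown was 0.33 (0.26 to 0.39), the wild-type construct was lower than shYthdf2_EV, at -0.19 (-0.26 to -0.13), and the mutant construct did not differ from it beyond counting error (0.03, -0.04 to 0.09). *Klf4* shared 359 of its 7553 exon bases with the opposite-strand gene *Gm12506*, which had at most 2 reads in a library.

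*Klf5* (chr14:99536127-99550848, plus strand), which is needed for the first embryonic lineages as well as for ESC renewal, had 4465, 4856, 4583 and 4751 reads in shscr_EV, shYthdf2_EV, shYthdf2_WT and shYthdf2_Mut. Its log2 ratio on knockdown was -0.06 (-0.15 to 0.02). Only the mutant construct stood apart from shYthdf2_EV, at 0.15 (0.06 to 0.23). The 3 Krüppel-like factors thus showed 3 orders of the libraries, and their largest differences between any pair of libraries were 0.35, 0.36 and 0.15 on the log2 scale.

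*Tfcp2l1* and *Tbx3* carry the LIF signal into the network, the first downstream of STAT3 and the second downstream of PI3K and AKT. *Tfcp2l1* (chr1:118555646-118612898, plus strand) had 24352 reads in shscr_EV, 22975 in shYthdf2_EV, 22328 in shYthdf2_WT and 22873 in shYthdf2_Mut. After scaling, the control was highest and the knockdown lowest, at -0.27 (-0.31 to -0.23). Both constructs lay between them, at 0.09 (0.05 to 0.12) above shYthdf2_EV for the wild-type and 0.17 (0.13 to 0.21) for the mutant. The mutant exceeded the wild-type by 0.08 (0.05 to 0.12), but this became -0.11 after the GC and length correction.

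*Tbx3* (chr5:119808600-119822789, plus strand) and *Klf5* varied least among the 10. *Tbx3* had 6446, 7238, 6798 and 7055 reads in the order shscr_EV, shYthdf2_EV, shYthdf2_WT and shYthdf2_Mut. Its knockdown ratio was -0.02 (-0.09 to 0.05), and the whole span over the libraries was 0.14, where that of *Klf5* was 0.15. shYthdf2_Mut was the highest, at 0.14 (0.07 to 0.21) above shYthdf2_EV. The opposite-strand gene *Tbx3os1*, which overlaps 258 of its 5164 exon bases, had between 12 and 21 reads.

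*Nr0b1* (chrX:85235381-85239553, plus strand) encodes DAX1, which binds OCT4 and other nuclear receptors and restrains their activity. It had 1352 reads in shscr_EV, 2557 in shYthdf2_EV, 1781 in shYthdf2_WT and 2035 in shYthdf2_Mut. The control was lowest, the knockdown highest, and the wild-type construct nearer the control than the mutant. The ratio on knockdown was 0.73 (0.60 to 0.87), or 1.66-fold, above 98.0% of the genes with a mean of at least 500 reads. Against shYthdf2_EV, shYthdf2_WT stood at -0.39 (-0.52 to -0.27) and shYthdf2_Mut at -0.15 (-0.27 to -0.03), and mutant against wild-type was 0.24 (0.11 to 0.37). The wild-type construct did not bring it to the control level, since shYthdf2_WT still lay 0.34 (0.19 to 0.48) above shscr_EV. The other 514 genes of chromosome X with a mean of at least 50 reads had a median ratio of -0.09 in shYthdf2_WT against shscr_EV and 0.02 in shYthdf2_Mut against shscr_EV, and 0 on knockdown, so *Nr0b1* lay above its chromosome in all 3. For mutant against wild-type the chromosome median was 0.11, and 0.13 remained of the 0.24. There the 6 such genes within 5 Mb had a median of 0.26, from which *Nr0b1* differed by -0.02. After the GC and length correction the ratios against shscr_EV became 0.79 for shYthdf2_EV, 0.23 for shYthdf2_WT and 0.70 for shYthdf2_Mut, and those against shYthdf2_EV -0.55 for shYthdf2_WT and -0.10 for shYthdf2_Mut.

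*Zfp42* (chr8:43748104-43760046, minus strand) encodes REX1, a zinc-finger protein related to YY1 and a common marker of naive cells. Its promoter is shown because OCT4 and SOX2 are known to drive this gene, and because 2 of the 4 motifs searched for were found there. The motifs were ATTTGCAT for the octamer, GGGTGTGG for Krüppel-like factors, TTCNNNGAA for STAT and TCAAGGTCA for ESRRB, on both strands, from 250 bases before to 50 after the start site. Of the 10 genes, 7 had an entry in the RefSeq promoter table (GRCm38.p6), and *Esrrb* had 2 entries. In the lines below the capitals mark the motif, the octamer as written and the Krüppel-like motif as its reverse complement.
Zfp42 octamer, chr8:43307178-43307205, minus strand, beginning 186 bases before the start site: ctgaagaggcATTTGCATaactgagcaa
Zfp42 Krüppel-like motif, chr8:43307067-43307094, minus strand, beginning 75 bases before the start site: acatccccgcCCACACCCaccttgagcg
Esrrb STAT motif, chr12:86360929-86360957, plus strand, beginning 178 bases before the start site: aacggaaactTTCGTGGAAagcacttgag
The octamer was found in 1.74% of 32851 promoters, the Krüppel-like motif in 3.56%, the STAT motif in 8.3% and the ESRRB motif in 0.423%. *Zfp42* and *Esrrb* were the only ones of the 7 with any of the 4 motifs in this window, and a match is a description of letters and not a binding site.

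*Zfp42* had 13918 reads in shscr_EV, 23750 in shYthdf2_EV, 16602 in shYthdf2_WT and 19220 in shYthdf2_Mut, the same order of libraries as *Nr0b1*. The knockdown lay 0.58 (0.54 to 0.63) above the control, or 1.5-fold, which was higher than 96.2% of the genes with a mean of at least 500 reads. Against the knockdown, shYthdf2_WT stood at -0.39 (-0.43 to -0.35) and shYthdf2_Mut at -0.13 (-0.17 to -0.09). Mutant against wild-type was 0.26 (0.22 to 0.30), and 0.19 after the GC and length correction. Both constructs left *Zfp42* above shscr_EV, at 0.20 (0.15 to 0.24) and 0.46 (0.41 to 0.50). Within 5 Mb of *Zfp42* there were 37 genes with a mean of at least 50 reads, with a median of 0.01 on knockdown, and 91.9% of them lay below it.

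*Prdm14* (chr1:13183652-13197387, minus strand) encodes a PR-domain protein that represses FGF signalling and the DNA methyltransferase *Dnmt3b*. It was the least expressed of the 10, with 1426, 1378, 1340 and 1422 reads in shscr_EV, shYthdf2_EV, shYthdf2_WT and shYthdf2_Mut. The knockdown lay below the control, at -0.24 (-0.39 to -0.08). The mutant construct lay 0.22 above the knockdown (0.07 to 0.38), while the wild-type construct did not differ from it beyond counting error (0.09, -0.07 to 0.24). *Dnmt3b* had 2713, 2822, 2589 and 2462 reads, a log2 ratio on knockdown of -0.13.

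*Tcl1* (chr12:105183012-105188996, minus strand), whose product binds AKT and raises its activity, had 2057 reads in shscr_EV, 1136 in shYthdf2_EV, 1924 in shYthdf2_WT and 1119 in shYthdf2_Mut. The libraries fell into a high pair and a low pair. The ratio on knockdown was -1.04 (-1.19 to -0.89), or 0.486-fold, and 0.304% of the genes with a mean of at least 500 reads were lower. The wild-type construct lay 0.89 (0.74 to 1.04) above the knockdown, the mutant construct did not differ from it beyond counting error (0.15, -0.01 to 0.33), and mutant against wild-type was -0.73 (-0.88 to -0.58). shYthdf2_WT came close to the control, at -0.16 (-0.28 to -0.03). The neighbouring paralogs *Tcl1b1* to *Tcl1b5* had between 0 and 14 reads. Reads that matched several places or genes were left out, so these counts cannot show that the paralogs were silent.

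*Esrrb* (chr12:86407891-86568402, plus strand), an orphan nuclear receptor and a main target of GSK3 inhibition in the network, had 25690 reads in shscr_EV, 26909 in shYthdf2_EV, 27365 in shYthdf2_WT and 23173 in shYthdf2_Mut. After scaling it was higher in shscr_EV and shYthdf2_WT than in the other libraries. The knockdown lay below the control, at -0.12 (-0.15 to -0.08). shYthdf2_WT against shYthdf2_EV gave 0.15 (0.12 to 0.19), and mutant against wild-type -0.19 (-0.23 to -0.15). The GC and length correction took these 3 values to -0.05, 0.03 and -0.11.

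*Esrrb* and *Tcl1* both lie on chromosome 12, and the values of that chromosome were therefore taken beside theirs. Its other 549 genes with a mean of at least 50 reads had a median log2 ratio of -0.27 on knockdown, 0.19 with the wild-type construct against the knockdown, and -0.15 for mutant against wild-type. The medians of the other 18 autosomes ran from -0.04 to 0.04, from -0.08 to 0.05 and from -0.12 to 0.14. In shYthdf2_WT against shscr_EV the median of chromosome 12 was -0.10, where those autosomes ran from -0.05 to 0.07. Set against its chromosome, *Esrrb* was higher and not lower on knockdown, by 0.15, and within 5 Mb, where 89 genes had a median of -0.17, it was higher by 0.05. That stretch holds a run of 18 genes at least 2-fold higher on knockdown, between 1.12 and 1.88 Mb from *Esrrb*, among them *Gm2016*, *Gm2022* and *BB287469*, with a median of 1.43. The run was noticed after its values were seen, and the median was -0.29 over the 71 other genes within 5 Mb. For shYthdf2_WT against shYthdf2_EV, *Esrrb* differed by -0.04 from its chromosome and by 0.01 from the genes within 5 Mb, and for mutant against wild-type -0.04 remained of -0.19. The direction of *Esrrb* thus turned on knockdown when the chromosome was taken out, and its ratio with the wild-type construct was close to that of its chromosome. *Tcl1* kept its direction. Its difference from the chromosome median was -0.77 on knockdown and 0.70 with the wild-type construct, and -0.58 remained for mutant against wild-type. For shYthdf2_WT against shscr_EV, -0.05 remained of -0.16. Within 5 Mb of *Tcl1* there were 53 genes with a median of -0.35 on knockdown, and 1.89% of them were lower than *Tcl1*. With the wild-type construct 94.3% of these 53 lay below it. In bins of 10 Mb along the chromosome that held at least 20 genes, the knockdown median was between -0.36 and -0.12. The part of the chromosome in the ratios of *Esrrb* and *Tcl1* was not tested beyond these differences.

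**Figure D3:**
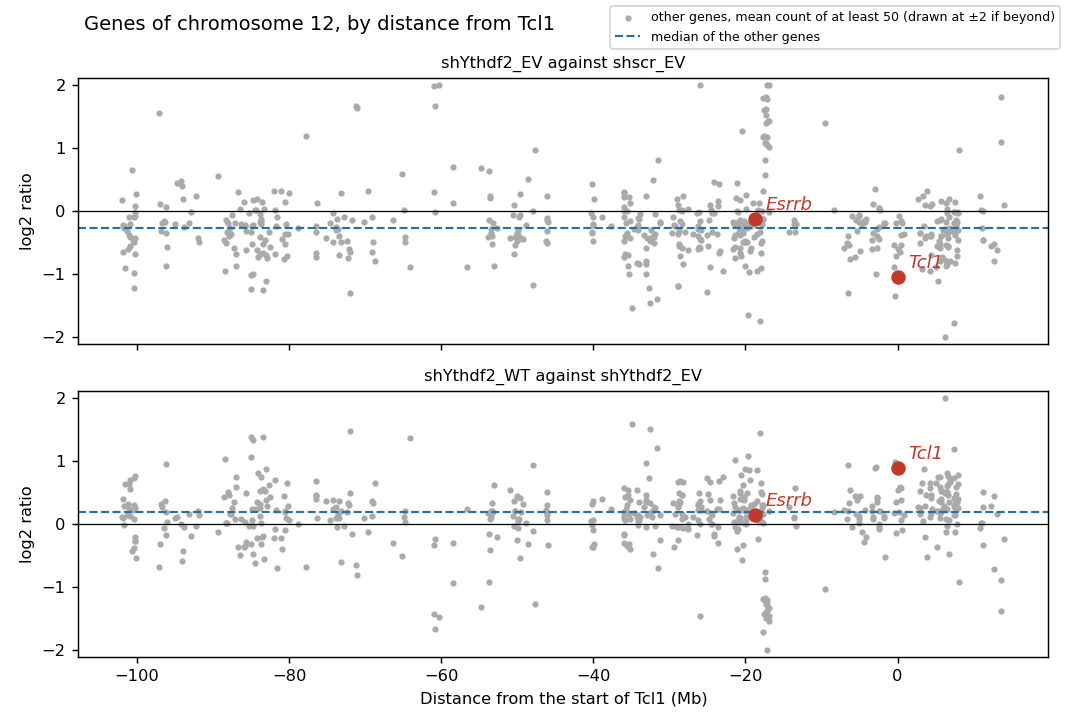
Log2 ratio of genes of chromosome 12 with a mean of at least 50 reads, by distance in Mb from the start of *Tcl1*, for the knockdown (top) and the wild-type construct against it (bottom), with a dashed line for the median of the other genes. *Esrrb* lay on the same side of 0 as the median of its chromosome (-0.27 and 0.19) and nearer to 0, while *Tcl1* lay beyond the median, at -1.04 and 0.89. The cluster of points beside *Esrrb* is the run of 18 genes.

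The comparison of each construct with the knockdown asks which differences were undone. With the wild-type construct, *Tfcp2l1*, *Esrrb* and *Tcl1* were higher outside counting error (21.2% of all tested genes, 28.3% of the well-read genes) and *Klf4*, *Nr0b1* and *Zfp42* were lower (21.6% and 31.7%), with a median over the 10 of 0.04. *Tcl1* alone was at least 1.5-fold apart (12.2% of all tested genes were that much higher and 11.1% that much lower, or 2.51% and 2.45% of the well-read genes). With the mutant construct, *Klf5*, *Tfcp2l1*, *Tbx3* and *Prdm14* were higher (14.7% and 25.4%) and *Esrrb*, *Nr0b1* and *Zfp42* were lower (12.9% and 18.9%), with a median of 0.08. None of the 10 was at least 1.5-fold apart in either direction (6.5% of all tested genes were that much higher and 8.78% lower, or 0.0702% and 1.03% of the well-read ones). The knockdown library enters both of these comparisons and the first, so the opposite signs of *Nr0b1*, *Zfp42* and *Tcl1* in them are not separate evidence.

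Mutant against wild-type construct shares no library with the knockdown comparison. *Klf4*, *Klf5*, *Tfcp2l1*, *Tbx3*, *Nr0b1* and *Zfp42* were higher with the mutant (23.9% of all tested genes were, and 37.0% of the well-read genes), and *Klf2*, *Esrrb* and *Tcl1* were lower (23.7% and 31.1%). Only *Tcl1* was at least 1.5-fold apart, and lower (14.9% and 4.87%, where 12.2% and 4.05% were that much higher). Its ratio of -0.73 became -0.45 with the GC and length correction and -0.58 with the chromosome correction, both short of 1.5-fold. Set beside the knockdown, 5 of the 10 genes had the same sign in both pairs of libraries, namely *Klf4*, *Nr0b1*, *Zfp42*, *Esrrb* and *Tcl1*, and among the 8542 genes with a mean of at least 500 reads 60.8% did. The tally depended on the GC and length correction, which turned *Klf2* and *Tfcp2l1* for mutant against wild-type and *Tbx3* on knockdown and gave 8 of 10. The chromosome correction also gave 5, with *Tbx3* in place of *Esrrb*, and total counts gave 6, with *Tbx3* added. Pearson's r over the 10 genes was 0.80, but 0.47 over the 9 without *Tcl1*, against 0.44 over all 8542. Genes are not independent replicates, and *Esrrb* and *Tcl1* share a chromosome that moved in both pairs. *Prdm14* was lower on knockdown, while mutant against wild-type was 0.14 (-0.02 to 0.29).

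**Figure D4:**
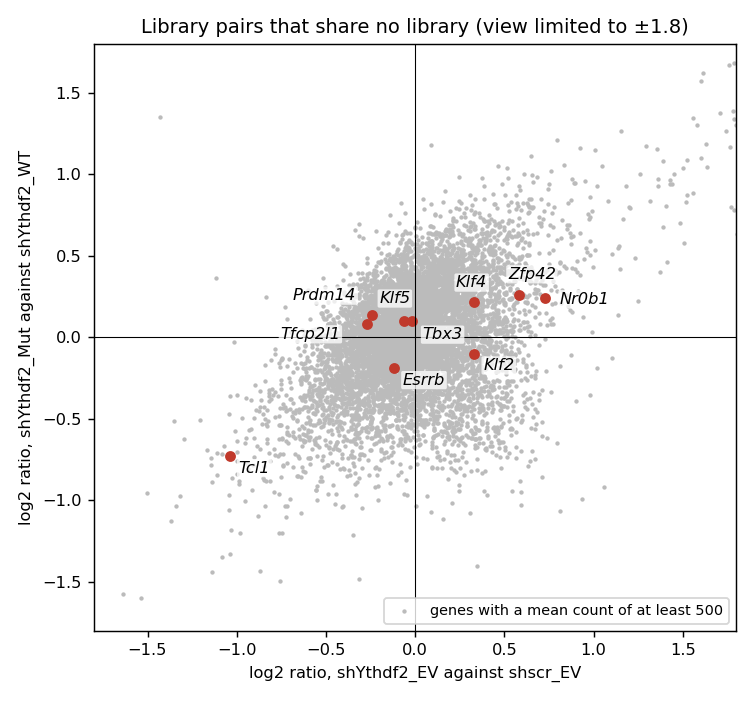
Log2 ratio on knockdown (horizontal) against log2 ratio of mutant to wild-type construct (vertical), in red for the 10 genes and in grey for 8542 genes with a mean of at least 500 reads, with the view limited to 1.8 on each side. *Nr0b1*, *Zfp42* and *Klf4* lay in the upper right and *Tcl1* at the lower left (-1.04 and -0.73). *Klf2* lay to the right and just below 0 (0.33 and -0.10), and the other genes were nearer the centre.

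Against the control, shYthdf2_WT had *Klf2*, *Klf4*, *Nr0b1* and *Zfp42* higher (15.9% of all tested genes, 23.8% of the well-read genes) and *Tfcp2l1* and *Tcl1* lower (16.4% and 28.3%). None of them differed by 1.5-fold, where 9.28% of all tested genes were that much higher and 7.15% lower, or 0.831% and 0.176% of the well-read ones. In shYthdf2_Mut *Klf2*, *Klf4*, *Tbx3*, *Nr0b1* and *Zfp42* were higher (21.7% and 31.2%) and *Tfcp2l1*, *Esrrb* and *Tcl1* lower (21.0% and 28.7%). *Tcl1*, at 0.541-fold, was the only 1 of them 1.5-fold or more apart, where 13.2% of all tested genes were that much lower and 12.5% higher, or 2.96% and 3.21% of the well-read ones. Both comparisons use the control library of the first.

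Some other measures, taken as sums, were in the same order of libraries as *Nr0b1* and *Zfp42*, and in the reverse order of *Tcl1*. The 6 markers of 2-cell-like cells, a rare state of ESCs with transcripts of the 2-cell embryo (*Zscan4c*, *Zscan4d*, *Zscan4f*, *Usp17la*, *Tcstv1* and *Tdpoz4*), summed to 96.4 CPM in shscr_EV, 342 in shYthdf2_EV, 109 in shYthdf2_WT and 307 in shYthdf2_Mut. The 6 neural markers summed to 80.3, 140, 99.4 and 134 CPM in the same order. Most of that sum was *Tubb3*, with 1339, 3350, 2018 and 2857 reads. Of the 6, 3 were higher on knockdown outside counting error (*Sox1*, *Tubb3* and *Neurod1*), where 23.2% of all tested genes were, while *Pax6*, *Nes* and *Map2* were within it. The reads of the 4 Y-linked genes, 2, 604, 85 and 528, followed this order as well. In shscr_EV, shYthdf2_EV, shYthdf2_WT and shYthdf2_Mut the primitive endoderm markers summed to 16.2, 22.7, 12.5 and 23.9 CPM. The trophectoderm markers summed to 27.8, 27.1, 28.1 and 35.0 CPM, and those of fibroblast feeders to 16.5, 11.6, 11.4 and 10.9. These sums did not follow the order, but primitive endoderm was higher in shYthdf2_EV and shYthdf2_Mut than in the other libraries. Mitochondrial genes took 8.44%, 6.75%, 6.34% and 6.14% of the reads, which was neither that order nor its reverse. The part of any of these in the results above was not tested.

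Because YTHDF2 binds m6A, the sense strand of the longest coding transcript of each gene (GENCODE vM21, GRCm38) was searched for GGACT, the commonest sequence around m6A. It was found 16 times in *Tfcp2l1* (1.73 per kb), 7 times in *Esrrb* (1.63) and *Tbx3* (1.41), 5 times in *Klf4* (1.65), 3 times in *Klf5* (0.895), 2 times in *Zfp42* (1.09), and 1 time in *Klf2*, *Prdm14* and *Tcl1*. In *Nr0b1*, the gene with the highest ratio on knockdown, it was found 0 times in 1808 bases. The median over 8136 protein-coding genes with a mean of at least 500 reads was 1.03 per kb. m6A is known to be most frequent near stop codons, and *Klf5*, *Tfcp2l1*, *Esrrb*, *Tbx3* and *Zfp42* had a GGACT within 300 bases of theirs, as did 50.9% of those genes. The copies nearest to the stop codon are shown for *Zfp42* and *Tcl1*, which moved most among the genes that have any, and for *Tfcp2l1*, which has the most, with the motif in capitals.
Zfp42, chr8:43295338-43295362, minus strand, 3′ UTR, 244 bases after the stop codon: aaggggatggGGACTtttgcatacg
Tcl1, chr12:105222682-105222706, minus strand, 5′ UTR: gttttatcacGGACTggcattgcaa
Tfcp2l1, chr1:118677416-118677440, plus strand, coding sequence, beginning 6 bases before the stop codon: cctgaagtgtGGACTctgagcagca
The density of the motif and the ratio on knockdown showed no single order, since of the denser genes *Tfcp2l1* was lower (-0.27) and *Klf4* higher (0.33), and of the sparser ones *Nr0b1* was higher (0.73) and *Prdm14* (-0.24) and *Tcl1* (-1.04) lower. The motif was not measured as methylated in these data, and its part in the ratios was not tested.

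The genes around the network were read from 4 lists. Of 13 genes that carry signals into it, 5 were higher and 6 lower on knockdown outside counting error, with a median of -0.09. Of all tested genes 23.2% were higher and 22.8% lower, and of the well-read genes 31.8% and 31.9%. The highest were *Id3* (1.41), a target of BMP like *Id1* of the same list (-0.30), and *Axin2* (1.32), a target of WNT, and the lowest were the LIF coreceptor *Il6st* (-0.40) and the STAT3 target *Socs3* (-0.38). *Socs3* had 5127 reads in shscr_EV, 4478 in shYthdf2_EV, 6154 in shYthdf2_WT and 3292 in shYthdf2_Mut, and *Axin2* had 347, 985, 531 and 918.

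Of 12 partners in the core and naive network, 5 were higher and 2 lower, with a median of 0.03. The shares were 23.2% and 22.8% of all tested genes, and 31.8% and 31.9% of the well-read genes. *Gbx2*, a homeobox factor downstream of STAT3, was the highest at 1.39, with 428, 1273, 653 and 1008 reads, and the zinc-finger factor *Sall4* followed at 0.41. Among partners with a mean of at least 50 reads, the lowest were *Tdgf1* (-0.44), the coreceptor of NODAL, and *Fgf4* (-0.30), a growth factor that drives exit from the naive state. *Gbx2* thus stood above each of the 10 genes on knockdown.

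Of 17 genes of exit from the naive state and of the formative state that follows it, 16 were tested, 8 were higher and 3 lower, and the median was 0.16. Of the 16, 4 were 1.5-fold or more above the control and 0 were 1.5-fold or more below it, where 13.8% and 12.9% of all tested genes were. *Sox3* (2.22), with 54, 288, 179 and 270 reads, and *Lef1* (2.05), with 60, 284, 78 and 219, were highest, and *Dnmt3a* (-0.32), on chromosome 12, and *Dnmt3b* (-0.13) were lowest. The formative marker *Fgf5* had between 2 and 18 reads. Of 32 paralogs of the 10 genes, 25 were tested, 10 were higher and 3 lower, and the median was 0.18. Among the paralogs with a mean of at least 50 reads, *Klf16* (0.55) and *Klf13* (0.53) were highest and *Grhl3* (-0.35) and *Klf10* (-0.26) lowest. All tested genes had 23.2% higher and 22.8% lower in this comparison, with a median of 0, and the well-read genes had 31.8% and 31.9%.

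**Figure D5:**
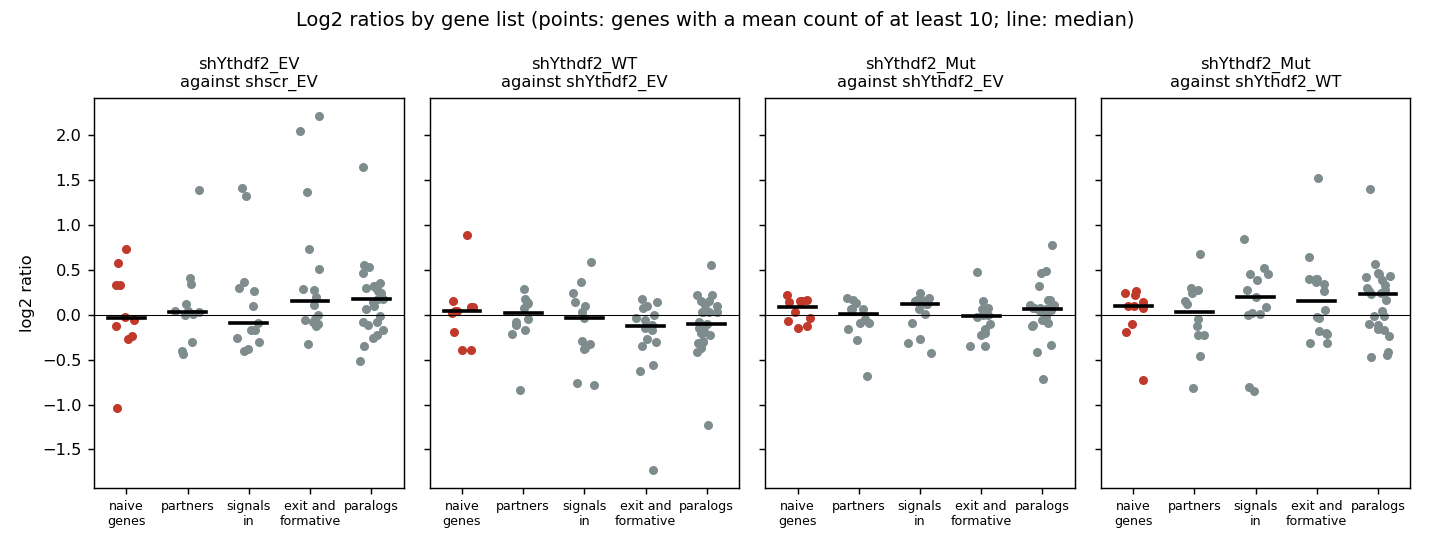
Log2 ratio of each gene with a mean of at least 10 reads in 5 lists and 4 comparisons of single libraries, with a line for the median of each list. On knockdown the median was -0.04 for the 10 naive genes, 0.03 for partners, -0.09 for signals, 0.16 for exit and formative genes and 0.18 for paralogs, and single genes reached 1.39, 1.41 and 2.22 in partners, signals and exit genes.

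With the mutant against the wild-type construct, the medians were 0.20 for signals, with 8 higher and 2 lower, and 0.04 for partners, with 6 and 4. They were 0.16 for exit and formative genes, with 8 and 4, and 0.23 for paralogs, with 7 and 3. Of all tested genes 23.9% were higher and 23.7% lower, and of the well-read genes 37.0% and 31.1%. The same medians for shYthdf2_WT against shYthdf2_EV were -0.04, 0.02, -0.13 and -0.10, and for shYthdf2_Mut against shYthdf2_EV 0.12, 0.01, -0.01 and 0.07.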

How the data were processed

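RNA-seq had been done by the authors on 4 libraries of E14 ESCs, 1 per group by title. The deposited values are read counts per gene for 50559 genes, made by the authors with featureCounts 2.0.3 at exons of the mm39 RefSeq annotation, unstranded, with reads that matched several places or genes left out. The paired-end option was set without pair counting, so each mate of a pair was counted on its own. The other deposited column used is exon length. The submitters' processing notes also name fastp 0.19.4, HISAT2 2.2.1, DESeq2 1.40.2 and the mm10 build, whereas the table's header names mm39, and positions are those of the table. The labels name total RNA and a dUTP kit, and the study's methods name poly(A)+ RNA and 2 replicates per group, of which the labels show 1.

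Library sizes were scaled with TMM of edgeR 4.0.16 (R 4.3.3) on the 18586 genes with a mean of at least 10 reads, and log2 ratios were taken after adding a prior count of 0.5. Intervals of 95% were Clopper-Pearson intervals on read pairs (reads divided by 2) for ratios, and exact Poisson intervals for RPKM (scipy 1.17.1). Amplified reads are not independent molecules, so they cover counting error only. No test was run, since each group had 1 library. Steps were tested on simulated data. Chromosome medians used genes with a mean of at least 50 reads, without the 10 genes. GC content came from GENCODE vM21 (all 10 genes, 16726 of the tested genes), in 10 GC and 5 length bins. Named were all 10 genes, *Ythdf2*, genes overlapping a member, the 2 highest and 2 lowest of each list by log2 ratio among genes with a mean of at least 50 reads, and the 3 genes nearest to each member that spans at least 0.5 on the log2 scale. The Y-linked genes, *Fgf5*, *Id1*, the single neural and 2-cell-like markers and the genes given beside a member were named after values were seen. The 10 genes and the lists were chosen with earlier results of these data known. Alternatives were other scalings, prior counts and filters, corrections for GC content with length and for chromosome, intervals on reads, and TPM.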

Additional observations from a re-analysis of the deposited data

How the results depend on the processing

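Each group had 1 library, so replicate spread is unknown and no alternative could leave a replicate out. No paired analysis was possible because the labels give 1 library per group. Of 420 log2 ratios of the 10 genes under 7 alternatives, 371 stayed within their counting interval, 5 that had been outside counting error turned, and 44 others moved beyond the interval. The correction for GC content and length moved 24 and turned 2 of its 60, the chromosome correction moved 11 and turned 3, and total counts moved 9. *Esrrb* turned when each ratio was set against the median of its chromosome over genes with a mean of at least 10 reads (at least 50 in the text above), to 0.13 on knockdown, -0.03 with the wild-type construct against it and 0.09 for mutant against shscr_EV. *Klf2* turned to 0.24 and *Tfcp2l1* to -0.11 for mutant against wild-type when GC content and exon length were corrected for. DESeq2 size factors, upper-quartile scaling, TMM without mitochondrial genes and a prior count of 5 moved none of the 60 ratios each was applied to.

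The median of the 10 genes on knockdown became 0.07 with the chromosome correction, and that of mutant against wild-type 0.19 with the correction for GC content and length. The latter also gave 5 genes lower with the wild-type construct against the knockdown, and 4 lower for wild-type against shscr_EV, where total counts and the chromosome correction each gave 1. The chromosome correction left 3 genes higher for mutant against wild-type. Chosen after seeing the data were 2 more counts. Genes whose sign was shared by the knockdown ratio and the ratio of mutant to wild-type construct became 8 with the correction for GC content and length. Genes at least 1.5-fold apart became 0 for mutant against wild-type with either correction, and 2 for mutant against shscr_EV with DESeq2 size factors, total counts or the correction for GC content and length, by the addition of *Nr0b1*. The share of all genes at least 1.5-fold apart depended on the filter. With a mean of at least 1 read it was 41.5% on knockdown, 38.9% and 32.9% for wild-type and mutant against the knockdown, 41% for mutant against wild-type, and 33.1% and 39.8% for each construct against shscr_EV. With a mean of at least 500 reads it was 6.94%, 4.95%, 1.1%, 8.92%, 1.01% and 6.17%. Order by TPM was the same as by RPKM in 4 of 4 libraries, as it must be. Within a library the measures differ only by a constant factor, so this is no check of the order.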

Other observations

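The genes whose pattern over the 4 libraries was nearest to that of *Nr0b1*, *Zfp42* and *Tcl1* were sought among the 8542 genes with a mean of at least 500 reads, as the Euclidean distance of log2 CPM centred over the libraries. With 4 points, many genes lie close by, and likeness says nothing of shared function or control. Nearest to *Zfp42* were the TGF-beta family ligand *Gdf3* (distance 0.03), the WNT receptor *Fzd10* (0.03) and the ligand *Nodal* (0.04). *Nodal* had 2394 reads in shscr_EV, 4163 in shYthdf2_EV, 2951 in shYthdf2_WT and 3406 in shYthdf2_Mut, and *Gdf3* had 2399, 4008, 2793 and 3260. Nearest to *Nr0b1* were the mitochondrial malate dehydrogenase *Mdh2*, the adaptor *Efs* and *Pdzd2* (0.06 each), and *Mdh2* had 5252, 10124, 7064 and 8351 reads.

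Nearest to *Tcl1* were *Ero1a* (0.05), an oxidase of the endoplasmic reticulum, *Acss2* (0.06), which makes acetyl-CoA from acetate, and *Rnf213* (0.07). *Ero1a* had 4956 reads in shscr_EV, 2749 in shYthdf2_EV, 4839 in shYthdf2_WT and 2795 in shYthdf2_Mut. These 3 genes, picked for this pattern, lie on chromosomes 14, 2 and 11.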
